A study of Rattus norvegicus with 22 samples.

Results

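Perilipins and the cell death-inducing DFFA-like effector (CIDE) proteins sit on the surface of the lipid droplet, the organelle in which cells store triglyceride. The genes described here are Plin1, Plin2, Plin3, Plin4, Plin5, Cidea and Cidec, chosen by name as the perilipin family and the CIDE genes of the table, and they are 7 of its 32623 genes. They were measured by mRNA sequencing in epididymal adipose tissue (fat, F) and gastrocnemius muscle (M) of male Sprague Dawley rats. The rats were 3 weeks old when a high-fat diet began, were made obese over 8 weeks of that diet, and were then kept for 4 weeks in normoxia or in reduced oxygen, with or without treadmill running. The groups are normoxia quiet (C), normoxia exercise (CE), hypoxic quiet (H) and hypoxia exercise (HE). All groups were obese and were deprived of food before sampling, so no lean or fed rats enter any comparison. In fat there were 3 libraries of FC, 3 of FCE, 2 of FH and 2 of FHE, and each muscle group (MC, MCE, MH and MHE) had 3. The running speed was 25 m/min in CE and 20 m/min in HE, so that a difference of HE from CE, or an interaction, holds a difference in speed beside that in oxygen.

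Perilipins coat the droplet and control the access of lipases to it. Plin1 is the main perilipin of the adipocyte and releases the lipase activator Abhd5 when it is phosphorylated, Plin2 and Plin3 coat droplets in most cell types, Plin4 coats nascent droplets in adipocytes and muscle, and Plin5 is known from oxidative tissues, where it links droplets to mitochondria. Cidec and Cidea, whose products gather where droplets touch, promote the transfer of lipid from a smaller to a larger droplet. Cidec is known from white fat, where large droplets form, and Cidea from brown fat. In skeletal muscle, droplets within fibres and adipocytes lying between fibres both hold such proteins, and bulk RNA does not separate them.

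In the coordinates of the deposited table, which follow Ensembl release 99, Plin1 (ENSRNOG00000015086) lies at chr1:141458181-141471010 on the minus strand and Plin2 (ENSRNOG00000007060) at chr5:104984414-105010857 on the minus strand. Plin3 (ENSRNOG00000048834), Plin5 (ENSRNOG00000047860) and Plin4 (ENSRNOG00000047046) share the plus strand of chromosome 9, at chr9:10773901-10781109, chr9:10956056-10961782 and chr9:10963723-10971277. Plin5 ends 1940 bases before Plin4 begins, with no gene of the table between them, and 12 genes lie between Plin3 and Plin5. Cidea (ENSRNOG00000018505) is at chr18:63098144-63108051 on the plus strand and Cidec (ENSRNOG00000009153) at chr4:145377431-145390497 on the minus strand. RefSeq also lists the pseudogenes Plin3-ps1 and Plin3-ps2, so that the Plin3 counts are uncertain where reads could fall on either copy.

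The 250 bases before the annotated start of each gene were read from RefSeq (build GRCr8), and all 7 genes matched. They are shown for the 3 members whose promoter held a searched motif. Cidec and Plin1 hold a match of the C/EBP palindrome TTGCNNAA, and Plin2 holds the E-box CACGTG. A link between these matches and the levels of the genes was not tested. Capitals mark these matches, and the sequences run 5′ to 3′ on the strand of the gene, which is the minus strand of this build for all 3.
Plin1, chr1:143086149-143086398: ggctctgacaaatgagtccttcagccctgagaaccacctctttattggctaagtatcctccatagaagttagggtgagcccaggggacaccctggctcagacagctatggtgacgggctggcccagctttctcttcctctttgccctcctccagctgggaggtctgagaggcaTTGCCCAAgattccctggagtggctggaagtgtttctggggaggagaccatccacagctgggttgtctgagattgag
Cidec, chr4:148137116-148137365: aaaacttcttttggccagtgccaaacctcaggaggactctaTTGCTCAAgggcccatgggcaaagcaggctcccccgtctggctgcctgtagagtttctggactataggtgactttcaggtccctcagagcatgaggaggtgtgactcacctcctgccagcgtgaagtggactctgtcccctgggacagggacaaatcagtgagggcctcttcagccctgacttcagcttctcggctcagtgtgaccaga
Plin2, chr5:106229019-106229268: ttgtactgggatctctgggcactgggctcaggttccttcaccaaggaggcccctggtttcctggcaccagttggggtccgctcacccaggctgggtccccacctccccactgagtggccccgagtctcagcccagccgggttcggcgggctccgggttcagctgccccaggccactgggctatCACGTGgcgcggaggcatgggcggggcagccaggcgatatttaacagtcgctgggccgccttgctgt
The C/EBP palindrome stands at -77 to -70 from the start of Plin1 and at -209 to -202 from that of Cidec, and 9.22% of all 33469 promoters of this length hold it. The E-box of Plin2 stands at -67 to -62, and 5.59% of promoters hold it. It overlaps a match on either strand of ACGTG, a form of the core of the hypoxia response element. ACGTG is held by 16.6% of promoters and by no other of the 7. The form GCGTG was not searched, and the windows of Cidec, Cidea and Plin5 hold those letters. Neither the PPAR/RXR direct repeat (0.368% of promoters) nor TATAAA (12.9%) was found in any of the 7 windows. All motifs were searched on both strands, and a match of letters is a description and not a bound site.

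Libraries held 27149905 to 44334313 counts. Mitochondrially encoded genes took 89.4% to 97.4% of them in muscle, so that the nuclear counts came to 841153 to 4334813 in a muscle library and 20060028 to 36162561 in a fat library. In fat the mitochondrial share was 10.1% to 22.6% in 8 libraries, 44.7% in FHE2 and 40.7% in FHE3. Levels are therefore given as counts per 1000000 nuclear counts (CPM), and levels of different genes are compared in TPM, which allow for gene length, also rescaled to nuclear genes. In muscle 3 counts, the limit that a count of 0 allows, stand for 0.692 to 3.57 CPM, which covers counting error only. The summed level of 16 adipocyte markers was 47512 to 98448 CPM in fat and 2009 to 4681 in muscle. That of 14 muscle fibre markers was 53666 to 123224 CPM in muscle and 9.84 to 31978 in fat. Neither pair of ranges overlapped. Of the adipocyte sum in muscle, Car3 gave 532 to 2263 CPM, Fabp4 444 to 994 and Lpl 246 to 862. Adipoq gave 22.7 to 304, and which cells of muscle made these transcripts was not tested. Acta1, the skeletal actin, was above 0 in all 10 fat libraries, at 7031 CPM in FHE3, 550 in FCE2, 24.1 in FC3 and 0.138 to 5.12 in the others. FH3 had the lowest adipocyte marker level of the fat libraries (a mean of 9.83 on the log2 scale) and the highest levels of mesothelial and macrophage markers.

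Fat and muscle carried different sets of perilipins. In fat, Plin1 made up 72.7% to 88.5% of the summed TPM of Plin1 to Plin5 in every library, and Plin5 at most 0.567%. In muscle, Plin2 held the largest part, 38.5% to 65.5%, and Plin3 took 17.1% to 36.9%, while Plin1 ranged from 0% to 25.8%. Plin3 came second in 10 of 12 muscle libraries, the exceptions being MC2, where Plin4 took 19.97%, and MHE2, where Plin1 took 25.8%. The summed TPM of the 5 perilipins was 1486 to 3062 in fat and 74.9 to 131 in muscle, so the ranges did not overlap.

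**Figure D1:**
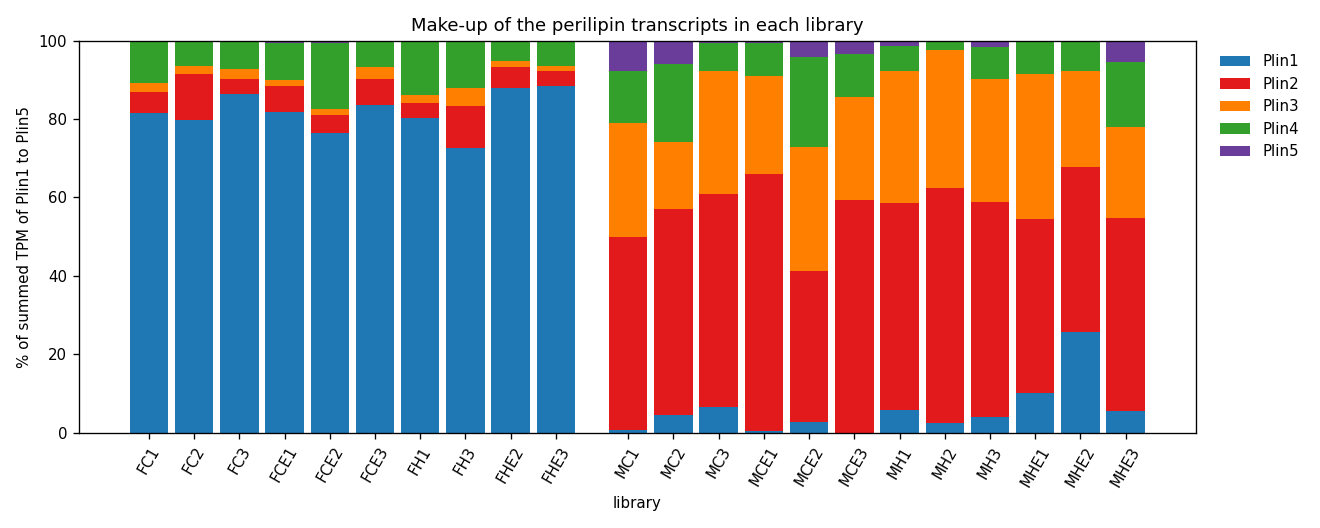
Stacked bars give, for each of the 22 libraries (horizontal axis), the percentage of the summed nuclear TPM of Plin1 to Plin5 (vertical axis) that each perilipin took. Plin1 fills 72.7% to 88.5% of every fat bar, and Plin2 and Plin3 fill most of every muscle bar.

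By mean TPM, Cidec (1946 ± 628, SD, n = 10) and Plin1 (1715 ± 385) led in fat and ranked 54 and 68 among 32586 nuclear genes. Cidec was above Plin1 in 7 of the 10 libraries, so the order of these neighbours did not hold throughout. Plin4 (207 ± 134), Cidea (150 ± 63.7) and Plin2 (128 ± 63.4) followed, and their SDs overlapped: Plin4 was above Cidea in 6 of 10 libraries and Cidea above Plin2 in 8. Plin3 (45.2 ± 14.3) and Plin5 (6.84 ± 4.32) came last, each below its neighbour in all 10 libraries.

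In muscle the order by mean TPM was another one. Plin2 (53.2 ± 14.2, SD, n = 12) was above Plin3 (29.3 ± 7.79) in all 12 libraries, and Plin3 was above Cidec (11.8 ± 11.02) in 11. Plin4 (10.8 ± 4.61), Plin1 (6.23 ± 8.82), Cidea (5.07 ± 5.98) and Plin5 (2.49 ± 2.77) followed. Neighbours among these low members did not keep their order throughout: Cidec was above Plin4 in 5 of 12 libraries, Plin4 above Plin1 in 10, Plin1 above Cidea in 6, and Cidea above Plin5 in 7. Plin4 was nevertheless above Plin5 in all 12. Plin5, known from oxidative muscle, was the lowest member in all 10 fat libraries and had the lowest mean in muscle, where Plin1, Cidea or Cidec lay below it in some libraries. Raw counts behind the muscle values were small, with 0 to 223 counts of Plin1, 0 to 27 of Plin5 and 0 to 11 of Cidea per library.

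Of the 7 genes, 5 were called higher in fat than in muscle by edgeR with treatment as a covariate, at an adjusted p under 0.05, and none lower. Among all 13797 genes tested, 58.6% were called in either direction and 32.5% higher in fat, and the median log2 fold change was 0.09. The log2 fold change was 8.43 for Plin1 (SE 0.62, edgeR adjusted p = 2.05e-10) and 7.20 for Cidec (SE 0.49, adjusted p = 6.13e-11). For Cidea it was 4.67 (SE 0.41, edgeR adjusted p = 3.69e-09) and for Plin4 3.89 (SE 0.35, adjusted p = 5.06e-09). Plin2, the perilipin of most cell types, was 0.88 higher (SE 0.19, edgeR adjusted p = 0.000433). Plin3 differed by 0.22 (SE 0.15, 95% interval -0.09 to 0.53, edgeR adjusted p = 0.207) and Plin5 by 1.29 (SE 0.61, 95% interval 0.03 to 2.55, adjusted p = 0.0735), which did not pass. Between FC and MC alone the Plin5 value was -0.62 (adjusted p = 0.617 in edgeR). Fewer cells of a type and less RNA per cell cannot be told apart in these bulk samples.

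Plin1, the lipase gatekeeper, was high in every fat library. It stood at 3409, 3652 and 2649 CPM in FC1 to FC3, at 3066, 4117 and 2474 in FCE1 to FCE3, at 4060 and 1955 in FH1 and FH3, and at 3193 and 3714 in FHE2 and FHE3. The groups overlapped throughout, and the lowest level was that of FH3, the library with the lowest adipocyte marker level. In muscle Plin1 was at 2.22, 9.68 and 19.1 CPM in MC1 to MC3, at 1.81, 5.51 and 0 in MCE1 to MCE3, at 15.0, 4.38 and 9.51 in MH1 to MH3, and at 25.4, 76.6 and 10.5 in MHE1 to MHE3. Each MHE library was above each MCE library, and MHE2 stood far above the rest. The 0 of MCE3 allows up to 1.02 CPM at 3 counts.

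Cidec followed the same layout. Its levels were 2256, 2142 and 1875 CPM in FC1 to FC3, 2886, 2491 and 1229 in FCE1 to FCE3, 3112 and 855 in FH1 and FH3, and 2199 and 1889 in FHE2 and FHE3. The fat groups overlapped, and the pair FH1 and FH3 held both the highest and the lowest of the 10 values. In muscle it was at 6.12, 23.2 and 18.9 CPM in MC1 to MC3, 7.56, 2.75 and 5.46 in MCE1 to MCE3, 19.0, 2.54 and 32.1 in MH1 to MH3, and 32.4, 55.7 and 22.9 in MHE1 to MHE3. Each MHE library was again above each MCE library.

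Plin2, which coats droplets in most cells, was at 147, 335 and 83.4 CPM in FC1 to FC3, 156, 155 and 125 in FCE1 to FCE3, 122 and 181 in FH1 and FH3, and 120 and 101 in FHE2 and FHE3. FC2 was the highest and FC3 the lowest, so the control group alone spanned the whole range of fat. In muscle it was at 91.8, 72.6 and 99.5 CPM in MC1 to MC3, 130, 45.4 and 90.1 in MCE1 to MCE3, 86.3, 69.4 and 80.8 in MH1 to MH3, and 70.4, 82.5 and 58.7 in MHE1 to MHE3. The muscle groups all overlapped.

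Plin3, which moves between cytosol and droplet, was the member whose libraries lay closest together within the fat groups, with an SD within groups of 0.19 on the log2 scale. It was at 40.6, 43.1 and 36.6 CPM in FC1 to FC3, 27.8, 39.0 and 39.7 in FCE1 to FCE3, 46.9 and 55.2 in FH1 and FH3, and 26.3 and 24.4 in FHE2 and FHE3. Both FH libraries were above all others of fat and both FHE libraries below all others. In muscle its levels were 17.4 to 41.1 in MC, 26.9 to 35.1 in MCE, 28.6 to 38.9 in MH and 19.8 to 41.4 in MHE, and the groups overlapped.

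Plin4, a perilipin of young droplets, ranged more widely in fat than the other members above Plin5. It was at 634, 420 and 335 CPM in FC1 to FC3, 507, 1303 and 275 in FCE1 to FCE3, 979 and 464 in FH1 and FH3, and 249 and 369 in FHE2 and FHE3. Both FHE libraries were below both FH libraries, while FCE2 was the highest. The fibre markers summed to 1768 CPM in FCE2 and to 31978 in FHE3, where Plin4 was at 369. In muscle it was at 56.7, 62.9 and 28.8 CPM in MC1 to MC3, 38.1, 61.3 and 38.2 in MCE1 to MCE3, 23.9, 6.69 and 27.3 in MH1 to MH3, and 30.1, 34.4 and 45.1 in MHE1 to MHE3. Here the order was the other way round, with all MH libraries below all others of muscle.

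Plin5 was scarce in both tissues. Its fat levels were 7.98, 4.78 and 1.59 CPM in FC1 to FC3, 14.1, 19.7 and 7.21 in FCE1 to FCE3, 8.86 and 3.78 in FH1 and FH3, and 10.5 and 8.45 in FHE2 and FHE3. FCE3 overlapped FC, and FC3 was the lowest. In muscle it was at 15.0, 8.71 and 1.42 CPM in MC1 to MC3, 1.21, 5.51 and 5.46 in MCE1 to MCE3, 2.21, 0 and 2.38 in MH1 to MH3, and 0.78, 0 and 6.80 in MHE1 to MHE3. At 0 to 27 counts per library, differences between muscle groups were not detectable at this depth.

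Cidea, known from brown fat, was at 81.2, 98.9 and 49.9 CPM in FC1 to FC3, 54.1, 46.3 and 46.0 in FCE1 to FCE3, 48.9 and 26.9 in FH1 and FH3, and 49.9 and 28.0 in FHE2 and FHE3. Both FH libraries were below all 3 of FC, with FH1 close to FC3. In muscle it ranged from 0 to 9.68 CPM, was at 0 in 3 of 12 libraries and did not pass the filter on low counts. Ucp1, the uncoupling protein that defines the brown adipocyte, had 0 counts in all 22 libraries. Of the 11 brown markers other than Cidea, 3 had a mean of at least 1 CPM in fat, Cox8b among them. Cox8b was at 25.5 CPM in FHE3, the fat library with the most fibre transcripts, and at 0 in 6 of 10 fat libraries. In muscle Cox8b was at 72.5 to 468 CPM.

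**Figure D2:**
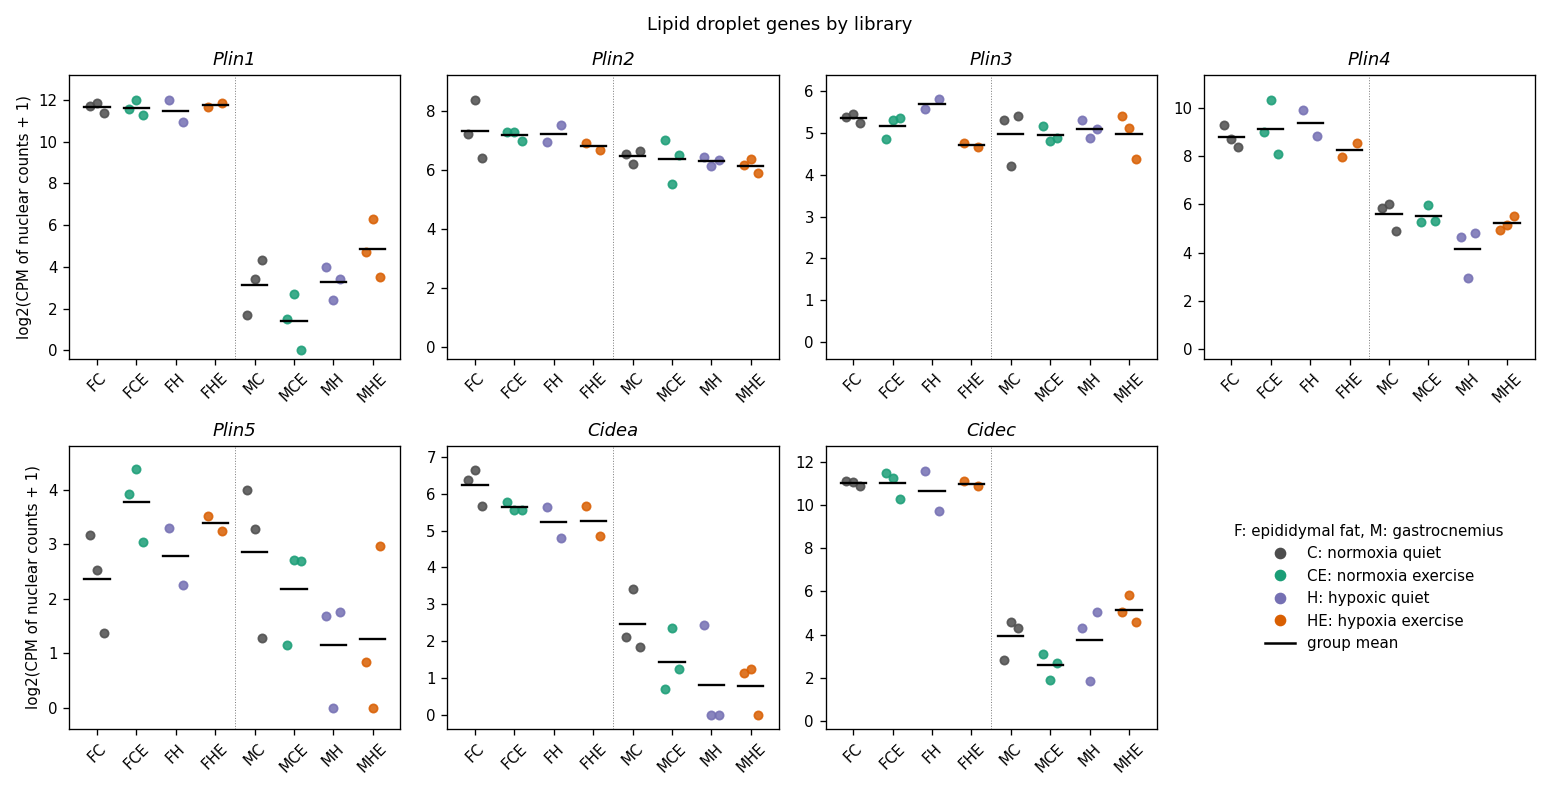
Each panel plots log2(CPM of nuclear counts + 1) of one gene (vertical axis) by group (horizontal axis), with one point per library and a black bar for the group mean. Plin1 and Cidec separate fat from muscle by the widest gap, Plin3 overlaps between the tissues, and the MHE libraries of Plin1 and Cidec lie above the MCE libraries.

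The treatments were compared within each tissue over 16364 genes in fat and 12421 in muscle. In none of the 14 contrasts was a member called at an edgeR adjusted p under 0.05, and few genes were called at all. Of all genes in fat, 0% were called in the 4 pairwise contrasts and the interaction, and 0.00611% for exercise and for hypoxia averaged over the other factor. In muscle the share was 0.00805% for CE against C and for HE against H, 0.0403% for H against C, 0.0966% for hypoxia averaged, and 0% for the remaining contrasts. DESeq2 called 1 member for HE against H in fat and 1 for HE against CE in muscle. Members with an unadjusted p under 0.05 are given below with their sizes, although they fail the correction. Fat libraries also fell into sets by the part of mitochondrial counts taken by Mt-atp6 (2.20% to 3.53% in FC3, FCE1, FCE3 and FH3, 12.8% to 17.6% in the other 6, both FHE libraries among them), which no label explains. With this set as a term, 0 members were called in fat. The fold change of the member with the smallest p kept its sign in each fat contrast, as did that of Pnpla3 for hypoxia averaged, and the other fat values named below are given without it.

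In fat of exercised normoxic rats (CE against C), 1 of 7 members reached an unadjusted p under 0.05, against 5.04% of all genes, and it was Plin5. Its log2 fold change was 1.54 (SE 0.67, 95% interval 0.03 to 3.06, unadjusted p = 0.0465 and adjusted p = 0.923 in edgeR), and 2 of the 3 FCE libraries were above all of FC. Without FHE3 and FCE2, the libraries with the most fibre transcripts, it was 1.18 (unadjusted p = 0.174). The remaining 6 members had log2 fold changes between -0.60 for Cidea and 0.64 for Plin4. Of the lipolysis genes, Hilpda, whose product inhibits adipose triglyceride lipase, was at 1.11 with an unadjusted p of 0.0366 (edgeR adjusted p = 0.923). Of 16 genes of triglyceride synthesis, 1 was at an unadjusted p under 0.05, Mogat2, at -1.30 (SE 0.53). No list gene passed the adjusted threshold.

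In fat of hypoxic quiet rats (H against C), Cidea was the member with an unadjusted p under 0.05, 1 of 7 against 4.75% of all genes. Its log2 fold change was -1.16 (SE 0.46, 95% interval -2.20 to -0.12, unadjusted p = 0.0325 and adjusted p = 1 in edgeR). Its libraries did not overlap, which held for 4.91% of all genes in this direction. The value rested on the 2 FH libraries unequally: it was -0.65 without FH3 and -1.96 without FH1. In the same contrast 12 of 12 mesothelial markers had a positive log2 fold change with a median of 4.15, and 2 of 16 adipocyte markers a positive one, with a median of -0.35. Their part in the result was not tested. Plin3 was at 0.14 (SE 0.22) with libraries that did not overlap, as those of 14.2% of all genes in that direction did.

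Among the other droplet genes of this contrast, Pnpla3, a lipase of the droplet surface, was at -1.96 (SE 0.31, unadjusted p = 0.000122 and adjusted p = 0.393 in edgeR). Mogat2 and Acsl3, enzymes that build glycerides and activate fatty acids, were at -2.50 and -1.18. Nsdhl, a sterol enzyme found on droplets, was at -1.15. Of 12 lipolysis genes 1 had a positive log2 fold change, with a median of -0.35, and of 16 genes of synthesis and droplet assembly 3 did, with a median of -0.37, while the median of all genes was 0.02.

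In fat of hypoxic rats, exercise (HE against H) came with Plin3 levels below those of quiet rats in both libraries, and the difference failed the correction. The log2 fold change of Plin3 was -0.79 (SE 0.25, 95% interval -1.34 to -0.24, unadjusted p = 0.00977 and adjusted p = 0.220 in edgeR), in 1 of 7 members against 16.8% of all genes at an unadjusted p under 0.05. DESeq2 called it at an adjusted p of 0.0378, with 996 genes called. Plin2, Plin3 and Plin4 did not overlap between the groups and were lower in FHE, as 28.9% of all genes did. Plin4 was at -1.10 (SE 0.76, 95% interval -2.80 to 0.60) and Plin2 at -0.22 (SE 0.54). The mitochondrial share of counts was 40.7% and 44.7% in FHE and 10.3% and 11.6% in FH, and 14 of 14 fibre markers were positive with a median of 10.8, through FHE3. Of 12 mesothelial markers 0 were positive, with a median of -1.72, and of 13 macrophage markers 1 was, with a median of -0.91, both highest in FH3. The Plin3 value ran from -0.89 to -0.68 as each library was left out, and was -0.75 without FHE3 and FCE2. The part of these differences in the result was not tested.

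In fat of hypoxia exercise against normoxia exercise rats (HE against CE), Plin3 was at -0.52 (SE 0.23, 95% interval -1.03 to -0.01, unadjusted p = 0.0451 and adjusted p = 0.433 in edgeR), in 1 of 7 members against 11.4% of all genes. Plin2 and Plin3 did not overlap between the groups, as 14.2% of all genes in this direction did. Without FHE3 and FCE2 the Plin3 value was -0.37 (unadjusted p = 0.292). Pnpla3 was at -2.83 (SE 0.33, unadjusted p = 8.98e-06 and adjusted p = 0.147 in edgeR) and Hilpda at -2.16 (SE 0.55).

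Averaged over rest and exercise, hypoxia gave Cidea a log2 fold change of -0.77 (SE 0.32, unadjusted p = 0.0399 and adjusted p = 0.441 in edgeR), in 1 of 7 members against 11% of all genes. It was -0.52 without FH3 and -1.17 without FH1, and 12 of 12 mesothelial markers were positive, with a median of 2.71. Averaged over both oxygen levels, exercise gave Plin3 -0.46 (SE 0.16, unadjusted p = 0.0159 and adjusted p = 0.176 in edgeR), in 1 of 7 members against 20.7%. The interaction in fat had no member at an unadjusted p under 0.05, against 5.21% of all genes, and its smallest p was that of Plin3 (-0.66, SE 0.32, unadjusted p = 0.0645 and adjusted p = 0.943 in edgeR).

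Pnpla3 was the droplet-list gene that passed the correction in fat. It stood at 217, 233 and 144 CPM in FC, 127, 149 and 196 in FCE, 57.3 and 60.6 in FH and 23.7 and 21.4 in FHE, so that all hypoxic libraries were below all normoxic ones and FHE was below FH. Averaged over rest and exercise its log2 fold change for hypoxia was -2.39 (SE 0.23, edgeR adjusted p = 0.0257), the only gene of 16364 called lower in that contrast. The call was lost with the replicate number as a block (adjusted p = 0.0674) and without any 1 of 8 of the 10 libraries, FC3 and FH1 being the exceptions, with a log2 fold change of -2.31 to -2.51 over all omissions and an adjusted p of 0.00674 to 0.141 in edgeR. It held with the other normalizations and filters, the Mt-atp6 term and DESeq2 (adjusted p = 8.78e-24), and not without FHE3 and FCE2 together (0.135).

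In muscle of exercised normoxic rats (CE against C), 1 of 6 tested members reached an unadjusted p under 0.05, against 3.09% of all genes. It was Plin1, at -2.39 (SE 1.04, 95% interval -4.61 to -0.16, unadjusted p = 0.0373 and adjusted p = 0.9998 in edgeR). All 6 members had negative values, while 50.1% of all genes had positive ones. Cidec was at -1.54 (SE 0.72), and Plin2, Plin3 and Plin4 lay between -0.13 and -0.02 (unadjusted p = 0.686 to 0.957 in edgeR). Of 13 adipocyte markers tested, 4 had a positive value in this contrast, with a median of -0.35, 3 were lower at an unadjusted p under 0.05, and none was called. Adipoq was at -1.64 (SE 0.63). With the adipocyte marker level as a covariate the Plin1 value was -1.25 (unadjusted p = 0.186). Without MC3 it was -1.43 (unadjusted p = 0.266).

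In muscle of hypoxic quiet rats (H against C), Plin4 was the member at an unadjusted p under 0.05, 1 of 6 against 8.42% of all genes. Its log2 fold change was -1.47 (SE 0.47, 95% interval -2.48 to -0.47, unadjusted p = 0.00703 and adjusted p = 0.365 in edgeR). All 3 MH libraries were below all 3 of MC, as those of 5.59% of all genes in this direction were. The value with the adipocyte marker level as a covariate was -1.50, and over all alternatives it ran from -1.78 to -1.01. Plin5, which neighbours Plin4, was at -2.70 (SE 1.47, 95% interval -5.86 to 0.45). Lpin1, a phosphatidate phosphatase of triglyceride synthesis, was at -0.97 (SE 0.40), Mgll, which splits monoglycerides, at -0.80 (SE 0.32), and G0s2, an inhibitor of adipose triglyceride lipase, at -1.23 (SE 0.54), all at an unadjusted p under 0.05 and none called.

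In hypoxic muscle, exercise (HE against H) had 2 of 6 members at an unadjusted p under 0.05, against 3.74% of all genes. Plin1 was at 2.08 (SE 0.87, 95% interval 0.20 to 3.95) and Plin4 at 1.06 (SE 0.46, 95% interval 0.06 to 2.05), each with an adjusted p of 0.99999 in edgeR. Plin4 libraries did not overlap, as those of 3.92% of all genes in this direction did not. Without MHE2 the Plin1 value was 0.92, and with the adipocyte marker level as a covariate 0.30. That marker level did not overlap between MH (4.21 to 5.31) and MHE (5.33 to 5.88), so the covariate cannot separate it from treatment. Without MH2 the Plin4 value was 0.59.

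In exercised muscle, hypoxia (HE against CE) had Plin1 and Cidec at an unadjusted p under 0.05, 2 of 6 members against 3.58% of all genes. Plin1 was at 4.23 (SE 1.02, 95% interval 2.03 to 6.42, unadjusted p = 0.00101 and adjusted p = 0.778 in edgeR). It was 3.02 without MHE2 and 5.35 without MCE2. Cidec was at 2.79 (SE 0.71, 95% interval 1.26 to 4.31, unadjusted p = 0.00153 and adjusted p = 0.828 in edgeR). All 3 libraries of MHE were above all 3 of MCE for both genes, as for 4.81% of all genes in this direction. DESeq2 called Plin1 at an adjusted p of 0.0117, with 14 genes called.

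Adipocyte markers had higher values in the same contrast, where 13 of 13 tested had a positive log2 fold change with a median of 0.77, against a median of all genes of 0.00, and 5 had an unadjusted p under 0.05. Adipoq, the adipocyte hormone adiponectin, was at 2.15 (SE 0.64), Fabp4, a fatty acid carrier of adipocytes, at 0.77 (SE 0.23) and Cfd, the complement factor of fat, at 1.06 (SE 0.35). With the adipocyte marker level as a covariate the values were 1.99 for Plin1 (unadjusted p = 0.0717) and 1.06 for Cidec (unadjusted p = 0.173). The marker level itself did not overlap between the groups, at a mean log2 level of 4.36 to 4.77 in MCE and 5.33 to 5.88 in MHE. The covariate therefore cannot separate treatment from adipocyte content, and the part of adipocytes between the fibres was not tested. Of the transcription factors of droplet genes, Pparg was at 1.18 (SE 0.46) and Srebf1 at 0.79 (SE 0.35) in this contrast, and neither was called. Pparg is also on the list of adipocyte markers.

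**Figure D3:**
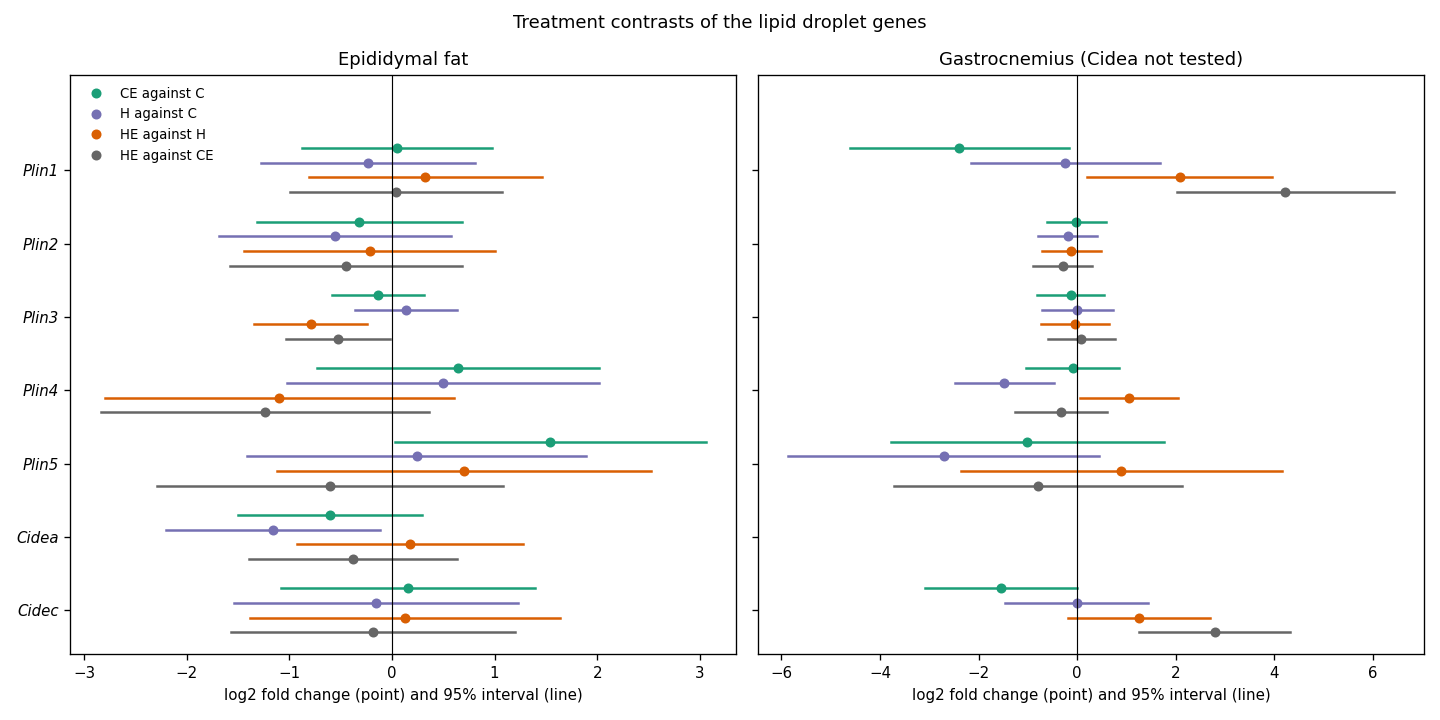
Points give the edgeR log2 fold change of each member (vertical axis) in 4 contrasts, with lines for the 95% interval (horizontal axis, log2 scale), in fat on the left and in muscle on the right. Most intervals include 0, and those of Plin1 and Cidec for HE against CE in muscle, from 2.03 to 6.42 and from 1.26 to 4.31, lie farthest above it.

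The interaction in muscle had Plin1 at 4.47 (SE 1.36, unadjusted p = 0.00529 and adjusted p = 0.9999 in edgeR) and Cidec at 2.80 (SE 0.99, unadjusted p = 0.0131), 2 of 6 members against 3.82% of all genes. Of 13 adipocyte markers 10 were positive in the interaction, with a median of 0.89, and 6 of them had an unadjusted p under 0.05. With their level as a covariate Plin1 was at 1.55 (unadjusted p = 0.295) and Cidec at 0.86 (unadjusted p = 0.386). The limit of this covariate given for HE against CE applies here and to hypoxia averaged. Averaged over rest and exercise, hypoxia had 3 of 6 members at an unadjusted p under 0.05, against 8.85% of all genes, with Plin1 at 1.99 (SE 0.68), Plin4 at -0.90 (SE 0.32) and Cidec at 1.39 (SE 0.49). Their edgeR adjusted p ranged from 0.405 for Plin1 to 0.427 for Cidec. Here 11 of 13 adipocyte markers were positive, with a median of 0.58, and with their level as a covariate Plin1 was at 1.22 (unadjusted p = 0.0502), Cidec at 0.63 (unadjusted p = 0.179) and Plin4 at -1.05 (unadjusted p = 0.0181). Exercise averaged over both oxygen levels had 0 of 6 members at an unadjusted p under 0.05, against 2.91% of all genes, with the smallest p for Plin4 (0.48, SE 0.32, unadjusted p = 0.151 and adjusted p = 0.9999 in edgeR).

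Across muscle libraries, Plin1 and Cidec had high levels where adipocyte transcripts were high. Over the 12 muscle libraries, the correlation of log2(CPM + 1) with the mean level of the 16 adipocyte markers was r = 0.84 for Plin1 (permutation p = 0.00049, adjusted over the 7 members 0.00241) and rho = 0.83 (permutation p = 0.00138). For Cidec it was r = 0.85 (permutation p = 0.00069, adjusted 0.00241) and rho = 0.78 (permutation p = 0.00465). The other 5 members had an r between -0.28 and 0.18. No share over all genes was computed for these correlations. Without MC1 and MH2, the libraries farthest from the median marker level, r was 0.90 for Plin1 and 0.82 for Cidec. With Car3, Gpd1 and Lpl left out of the markers, r over all 12 libraries was 0.836 for Plin1 and 0.843 for Cidec. With group means removed, r was 0.76 for Plin1 (permutation p = 0.00814, adjusted 0.0570) and 0.75 for Cidec (permutation p = 0.0461, adjusted 0.161), so neither passed the correction within groups. In fat, 0 of 7 members passed, and Cidec had the largest r at 0.78 (permutation p = 0.0102, adjusted 0.0714), which was 0.30 without FH3 and FCE1 and so rested on them.

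**Figure D4:**
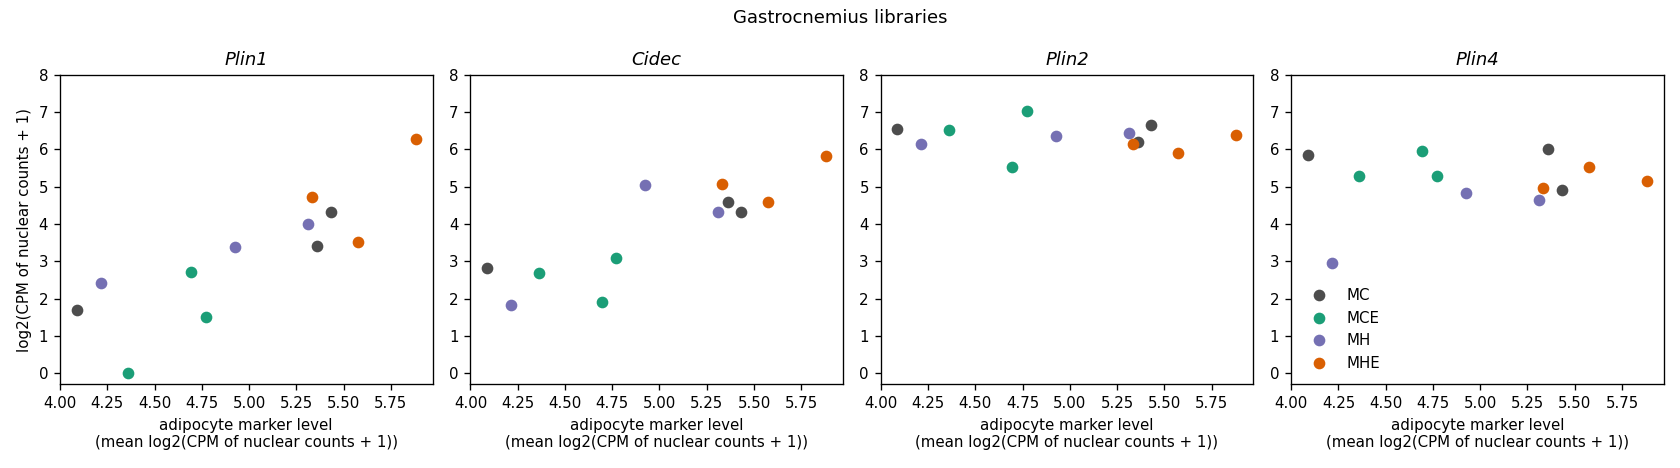
Each panel plots log2(CPM of nuclear counts + 1) of one gene (vertical axis) against the mean log2 level of the adipocyte markers (horizontal axis) over 12 muscle libraries, coloured by group. Plin1 and Cidec climb with the marker level (r = 0.84 and 0.85), and Plin2 stays flat.

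Set against Adipoq, the members fell into sets. For every 100 Adipoq counts summed over libraries, Plin1 had 33.05 counts in fat (20.4 to 49.0 per library) and 12.5 in muscle (0 to 32.3), and Cidec had 21.4 in fat (13.05 to 28.8) and 13.8 in muscle (3.82 to 30.3). Plin2 had 1.61 in fat and 65.7 in muscle, Plin3 0.396 and 25.7, Plin4 5.86 and 25.6, Plin5 0.0892 and 2.37, and Cidea 0.555 and 1.47. In these summed counts Plin1 and Cidec were lower in muscle than in fat relative to adiponectin, and the other 5 members were higher. The ranges over libraries overlapped between the tissues for Plin1, Cidec, Plin4, Plin5 and Cidea and did not for Plin2 and Plin3. MC3 gave 1284 of the 3803 Adipoq counts of muscle.

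Some pairs of members also varied together over the muscle libraries. Of 21 pairs, 2 passed a Benjamini-Hochberg adjusted permutation p under 0.05, and no share over all pairs of genes was computed. Group means were not removed for pairs, so differences between groups that both genes share enter these values. Plin1 and Cidec had r = 0.77 (permutation p = 0.00297, adjusted 0.0341) and rho = 0.75 (permutation p = 0.00697), and r was 0.72 without MCE3 and MHE2. Plin4 and Plin5, the neighbours on chromosome 9, had r = 0.73 (permutation p = 0.00325, adjusted 0.0341) and rho = 0.73 (permutation p = 0.00809), and r was 0.66 without MH2 and MC2. Plin5 had 0 to 27 counts per muscle library. In fat 0 of 21 pairs passed, where Plin1 and Cidec had r = 0.85 (permutation p = 0.00257, adjusted 0.0540) and r was 0.39 without FH3 and FCE3. Plin4 and Plin5 had r = 0.47 in fat (permutation p = 0.166, adjusted 0.468), and r was 0.082 without FCE2 and FH1.

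The genes whose level ran most like each member were named by Pearson r over the libraries of a tissue, among genes with a symbol and a mean of at least 10 CPM, as a description that shares libraries and depth. In fat, Cidec ran with Fah (r = 0.95), Ndufa4l2 (0.94) and Lipe, the hormone-sensitive lipase (0.93), and Plin1 with Cpt2, the mitochondrial carnitine palmitoyltransferase (0.96), Cdip1 and Porcn. Cidec and Lipe were both lowest in FH3 and next in FCE3 (Lipe at 1202 and 1452 CPM). These r values were not recomputed without those libraries. Among the genes closest to Plin5 was Agpat2, an acyltransferase of triglyceride synthesis (0.89). Cidea ran with Psmd9 (0.97), Fdps (0.95) and Derl2 (0.94), Plin4 with Slc19a1 (0.93), Plin3 with Slc12a4 (0.95) and Plin2 with Ctsz (0.85). In muscle, Plin1 ran with Mid1ip1 (0.92), a regulator of lipogenesis, Plin4 with Pptc7 (0.90) and Perm1, a muscle regulator of mitochondrial genes (0.86), and Plin5 with E2f6 (0.88) and Tnnc1, the troponin C of slow fibres (0.86). Cidec was closest to Apcdd1 (0.86), Cidea to Mff (0.93), Plin2 to Trip12 (0.92) and Plin3 to Tfpi (0.92).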

How the data were processed

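Gene counts and TPM were taken from the table the authors deposited for 32623 genes. Reads were checked with FastQC, trimmed with Trimmomatic and aligned by the authors with HISAT2 (rat, Ensembl release 99). The deposited counts are whole numbers without normalization, and the deposited TPM carry the authors' scaling for gene length and library total. FPKM, in 22 further columns, were left aside, and the program and strand setting of the counting are not given in the sources used here. CPM were taken over nuclear genes, and TPM were rescaled to 1000000 over nuclear genes.

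Counts were tested in R 4.3.3 with edgeR 4.0.16 (TMM, filter on low counts by group, quasi-likelihood F test, 1 mean per group, each tissue apart), and p was adjusted by Benjamini and Hochberg over all genes tested. A gene was called at an adjusted p under 0.05. The SE was the log2 fold change divided by the root of the F statistic, and the 95% interval used the fit's degrees of freedom. DESeq2 1.42.0 was an alternative, as were other filters and normalizations, the replicate number as a block, a term for libraries in which Mt-atp6 took over 8% of mitochondrial counts, and omission of each library in turn. Leaving out FHE3 and FCE2 together, and adipocyte markers without Car3, Gpd1 and Lpl, were added after seeing the data. Where an omission left 1 library in a group, it was assumed to vary like the others. Permutation tests were two-sided with 100000 draws, run with scipy 1.17.1 and numpy 2.4.6 (Python 3.11.15; tables with pandas 2.3.3, plots with matplotlib 3.10.9). The scripts were tested on simulated data.

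All 7 members were named, with fold changes where the unadjusted p was under 0.05 or smallest in a contrast. Up to 3 genes of lowest p were named from each list. The 3 genes most like each member were found in each tissue, and not all of them are named. Pnpla3 levels were added after its values were seen. The members and lists were chosen with earlier results of these data known. Libraries are treated as separate rats, as the study counts 22 rats, and whether fat and muscle libraries of the same number share a rat is not stated. One gene that met these rules is not reported here.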

Additional observations from a re-analysis of the deposited data

Results flagged for a closer look

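Plin3 in fat was marked because the libraries of H lay above all of C and those of HE below all of CE: the log2 fold change was 0.14 for H against C and -0.52 for HE against CE. The interaction, which tests this difference, was -0.66 (SE 0.32, unadjusted p = 0.0645 and adjusted p = 0.943 in edgeR) and did not pass. Plin4 was marked because exercise under hypoxia had opposite directions in the tissues, with all libraries of a group on one side: HE against H was -1.10 in fat and 1.06 in muscle. That difference between tissues was not tested. Groups here hold 2 or 3 libraries, so no search for outlying libraries was made.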

How the results depend on the processing

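The number of members called stayed at 0 in every treatment contrast under every setting run, with these exceptions: DESeq2 called 1 member for HE against H in fat and 1 for HE against CE in muscle, where edgeR called 0. The number of muscle correlations that passed fell from 2 to 0 with group means removed. With the replicate number as a block 0 members were called in each treatment contrast. Same-numbered libraries deviated together (r over 0.1) in 10 of 12 pairs within fat, 3 of 18 within muscle and 6 of 10 between tissues, against 6 of 25, 8 of 36 and 2 of 20 pairs with different numbers. The median r in fat was 0.27 for the same and -0.13 for different numbers. Shared numbers thus stood out in fat and between tissues but not in every pair, and the numbers were not taken as a pairing. Leaving out each library in turn gave 0 called members in each treatment contrast and 5 to 6 for fat against muscle, where all other settings gave 4 to 6.

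The Plin5 difference between fat and muscle changed sign to -0.62 with FC against MC only, passed with DESeq2 (adjusted p = 0.0419) and without FC3 (0.0301), MC1 (0.0182) or MHE3 (0.0486), while Plin2 no longer passed with FC against MC only (1.18, adjusted p = 0.0768, edgeR). Correlations with the adipocyte marker level changed sign without the 2 farthest libraries for Plin3 (0.00367 in muscle, 0.63 in fat) and Plin4 in muscle (-0.17), and with group means removed for Plin2 (0.10 in muscle, -0.056 in fat), all of which fail the test. Depth limits Plin5, Cidea and Plin1 in muscle, and groups of 2 limit fat.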
